A study of Mus musculus with 32 samples.

Results

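The transcripts of 10 activity-induced transcription factors, Fos, Fosb, Fosl2, Jun, Junb, Egr1, Egr2, Egr3, Egr4 and Npas4, were followed in mouse cortex and in its S100a10-expressing cells. They were chosen by name, as rows of the raw count tables, and are 10 of the 24062 genes counted. All mice carried the S100a10 bacTRAP transgene, Tg(S100a10-EGFP/Rpl10a)ES691Htz, in which regulatory elements of S100a10 drive a GFP-tagged ribosomal protein. Adult males formed 4 groups. Sh + Flx anxious mice were housed singly from weaning, drank fluoxetine, a serotonin reuptake inhibitor, and avoided the center of an open field. Sh + Flx mice were housed and treated likewise and did not avoid it, so that behavior, not treatment, set the Sh + Flx anxious and Sh + Flx mice apart. Sh mice were housed singly on vehicle, and Gh mice were group-housed littermates on vehicle. Fluoxetine was given at 0.167 g/L in the drinking water for 21 days according to the labels, while the study's methods give a span of days. Every mouse passed through the open field before its cortex was taken, and the time between that session and tissue collection was not given in the sources read here. RNA bound to the tagged ribosomes (TRAP) and RNA of the whole cortex (input) gave 32 libraries, 4 of each fraction in each group, and each library pooled 3 mice.

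These genes are immediate early genes, which neurons transcribe within minutes of synaptic activity from factors already present, chiefly CREB and serum response factor (SRF), and which then switch on slower target genes. Fos and Jun proteins pair into AP-1 dimers, Egr proteins are zinc finger factors that bind GC-rich sites, and Npas4 is a neuron-restricted partner of Arnt2. In cortex the mRNAs of this class are short-lived and are used as a record of recent activity, whereas the spliced short form of Fosb yields a stable protein that builds up over repeated stimulation. Counts per gene do not separate the splice forms of Fosb.

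The genes lie apart from each other. In GRCm38.p6 (mm10), Fos lies on chr12:85473890-85477274, Fosb on chr7:19302696-19310118, Fosl2 on chr5:32136472-32157840, Jun on chr4:95049036-95052222, Junb on chr8:84976909-84978748, Egr2 on chr10:67534469-67542188, Egr3 on chr14:70077317-70082613, Egr4 on chr6:85511121-85513589 and Npas4 on chr19:4984353-5003439. Egr2 overlaps the RefSeq gene Gm32255, which is not among the genes counted. The bases before the start sites were searched for TGACG on either strand, the core of the sites bound by CREB, and 17.8% of 32817 such windows of 250 bases held it. It was found in the windows of Fos, Fosb, Junb, Egr4 and Npas4 and in 3 of the 5 Egr2 starts, and not in those of Fosl2 and Jun. The windows of Egr1 and Egr3 were not analysed here. The windows of the 4 genes with which the results begin are printed here 5′ to 3′ from RefSeq GRCm38.p6, with TGACG or its reverse complement CGTCA in capitals. They are Fos (chr12:85473640-85473889, plus strand), Fosb (chr7:19310119-19310295, minus strand), Fosl2 (chr5:32136222-32136471, plus strand) and Jun (chr4:95052223-95052472, minus strand).
Fos: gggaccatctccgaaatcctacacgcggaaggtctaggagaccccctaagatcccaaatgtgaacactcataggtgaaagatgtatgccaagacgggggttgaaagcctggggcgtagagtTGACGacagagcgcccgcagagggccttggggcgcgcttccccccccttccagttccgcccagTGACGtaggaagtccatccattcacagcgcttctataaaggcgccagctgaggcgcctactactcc
Fosb: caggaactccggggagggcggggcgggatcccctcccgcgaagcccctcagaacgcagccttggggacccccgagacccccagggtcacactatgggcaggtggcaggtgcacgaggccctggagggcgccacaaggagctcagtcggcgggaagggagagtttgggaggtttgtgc
Fosl2: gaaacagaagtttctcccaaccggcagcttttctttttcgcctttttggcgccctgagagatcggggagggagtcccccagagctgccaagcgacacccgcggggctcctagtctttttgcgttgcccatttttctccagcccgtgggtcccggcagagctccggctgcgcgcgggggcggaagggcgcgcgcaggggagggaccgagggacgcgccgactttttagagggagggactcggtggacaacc
Jun: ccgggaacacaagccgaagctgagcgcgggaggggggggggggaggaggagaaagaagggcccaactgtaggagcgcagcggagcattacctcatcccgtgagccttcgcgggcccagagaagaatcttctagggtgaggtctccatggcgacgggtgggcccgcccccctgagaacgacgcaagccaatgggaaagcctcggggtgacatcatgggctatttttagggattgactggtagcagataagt
The Fos window carries TGACG at 2 places and is the only one of these windows with TATAAA, a motif of 12.4% of all windows. For Fosb, 73 bases that lie in an annotated exon, its single TGACG among them, are not shown. TGACGTCA, the full palindrome, was in none of the windows searched for the 8 members and in 1.55% of all windows. The CArG box bound by SRF, in 1.47% of all windows, was in 4 of the 5 windows of Egr2, which may overlap. A match describes these letters only.

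The libraries held 9776244 to 64788703 counts in genes in TRAP and 19265435 to 34515281 in input, and the smallest count of any of the 10 genes in a library was 20, for Junb in Sh TRAP replicate 3. S100a10 checked the purification, with 41.5 to 73.0 CPM (counts scaled to the total in genes) in TRAP against 5.45 to 10.3 CPM in input, except in Sh TRAP replicates 2 and 3, at 20.4 and 11.2 CPM. Those libraries also had 34654 to 51906 CPM of 7 nuclear noncoding RNAs, against 4370 to 11623 CPM in other TRAP libraries and 37035 to 59228 CPM in input. The label names layer 5a neurons, yet 6 layer 5 markers summed to 396 to 700 CPM in TRAP against 495 to 581 CPM in input. The 6 markers of meningeal fibroblasts, all measured, summed to 211 to 949 CPM in TRAP against 10.4 to 18.6 CPM in input. The pituitary hormone gene named Gh, not to be confused with the housing group, stood at 64.1 to 95.5 CPM in the Sh libraries 1 and 4 of both fractions, and at 0.552 CPM or less elsewhere. Gh TRAP replicates 2 and 3 were closer to each other than any other replicates were, near sampling noise, and were counted as 1 sample. Sh TRAP replicates 1 and 4 came next, with a mean chi-square of 2.17 per gene against 1.13, and were kept as separate samples. In every group the closest libraries were replicates 1 and 4 or replicates 2 and 3. The other of these pairs was not always the next closest. In Sh + Flx anxious TRAP, replicates 1 and 4 had a mean chi-square of 46.3 per gene, against 37.6 for replicates 1 and 2. Each call below is therefore also given, where it was lost, with replicates 1 and 4 summed and 2 and 3 summed (n = 2 a group).

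Per length, Egr1 was the most abundant of the 10 transcripts and Egr3 came next. In Gh input the levels, as CPM per kilobase of exon (RPKM), were 240.3 ± 15.03 for Egr1, 95.7 ± 12.5 for Egr3, 11.3 ± 1.62 for Jun, 9.50 ± 1.45 for Fosl2 and 5.16 ± 1.63 for Fos (SD, n = 4). Egr2 at 5.06 ± 0.714, Egr4 at 5.06 ± 0.642, Npas4 at 3.53 ± 0.306, Fosb at 3.46 ± 0.361 and Junb at 2.27 ± 0.872 RPKM followed. In all 8 groups the Egr1 libraries lay above those of Egr3, those of Egr3 lay above every other member, and Junb had the lowest mean. Neighbours in that order whose libraries overlapped in Gh input were Jun and Fosl2, Fos, Egr2 and Egr4, and Npas4 and Fosb. Jun stood above Fosl2 in 7 groups, and in Sh + Flx TRAP the mean of Fosl2 was above that of Jun.

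The spread between libraries of a group differed by gene. Egr3 and Jun varied by 2.61% to 20.7% and 4.80% to 15.7% of their mean (CV over the 8 groups), whereas Npas4 and Fos varied by 8.67% to 109% and 15.2% to 96.9%. The gene-wise biological coefficient of variation fitted by edgeR was, in TRAP, 0.711 for Npas4 and 0.653 for Fos, against 0.143 for Jun. The trend that edgeR fits along abundance had a median of 0.261 over all genes. In input the gene-wise value was 0.354 for Npas4 and 0.341 for Fos, against 0.0807 for Egr3, and the trend had a median of 0.121.

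In whole cortex, Jun mRNA was higher in both fluoxetine groups than in Sh and Gh, Fosb mRNA was higher in Sh + Flx, and Fosl2 and Egr1 mRNA were lower in Sh + Flx anxious. Between Sh and Gh none of the 10 passed the test. By edgeR's quasi-likelihood test with Benjamini-Hochberg adjustment over all genes, Sh + Flx against Sh called 2 members, both higher, beside 2.62% of all genes. For Sh + Flx anxious against Sh it called 1 higher and 2 lower, beside 6.86%. Sh + Flx against Gh called 2 higher, beside 5.31%, and Sh + Flx anxious against Gh called 1 higher and 2 lower, beside 11.5%. Between Sh + Flx anxious and Sh + Flx it called 1, lower in Sh + Flx anxious, beside 0.127%. Sh against Gh called 0 of 10, with 0 at an unadjusted p under 0.05 and 0 by DESeq2, beside 0.0829% of all genes. These comparisons share their control libraries and are not independent of each other. In RNA of bulk tissue, fewer cells of a type and less RNA per cell cannot be told apart, and the p-values measure the spread between these libraries, which may in part be technical.

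**Figure D1:**
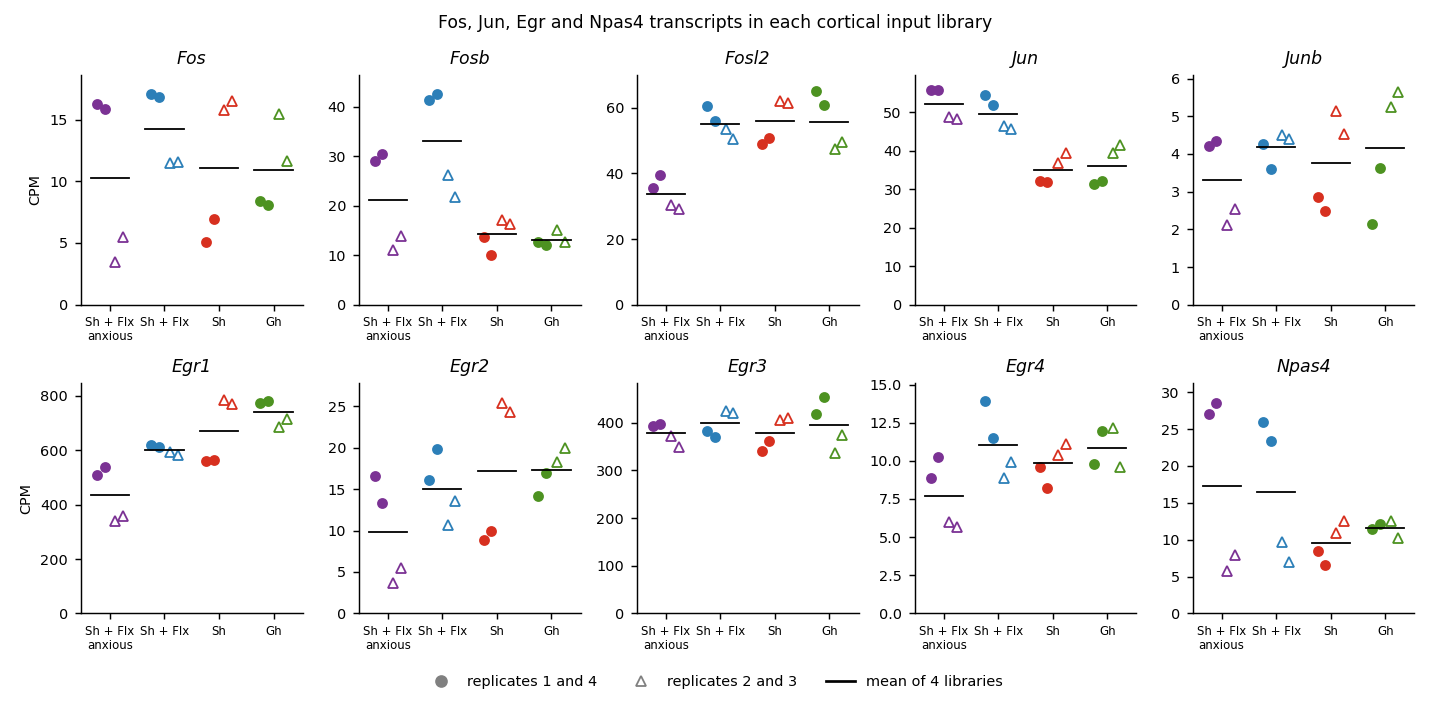
CPM of each of the 10 transcripts in the 16 input libraries, by group from Sh + Flx anxious to Gh. Filled circles are replicates 1 and 4, open triangles replicates 2 and 3, the bar is the mean of 4 libraries, and Jun lies at 45.6 to 55.7 CPM in the 8 fluoxetine libraries and at 31.2 to 41.5 CPM in the 8 others.

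Fosb, an AP-1 subunit of the Fos family, rose in Sh + Flx input. It stood at 41.4, 26.2, 21.9 and 42.7 CPM in Sh + Flx input (replicates 1 to 4, as in all such lists), against 13.7, 17.2, 16.3 and 10.1 CPM in Sh input and 12.6, 15.1, 12.6 and 11.99 CPM in Gh input. All 4 Sh + Flx libraries lay above all 8 libraries of the vehicle groups, and within Sh + Flx the replicates 1 and 4 were the highest. The log2 fold change against Sh was 1.20 (standard error 0.24, edgeR adjusted p = 0.00319), and against Gh it was 1.31 (edgeR adjusted p = 0.000662). With the library pairs summed, the adjusted p was 0.154 and 0.0621 by the same edgeR test. Leaving out the Sh libraries with pituitary transcripts, an alternative chosen after seeing the data, gave an edgeR adjusted p of 0.121 for Sh + Flx against Sh. Fosb in Sh + Flx anxious input stood at 29.1, 11.1, 13.8 and 30.4 CPM, split between the pairs. The test did not call it against Sh (log2 fold change 0.58, edgeR adjusted p = 0.174) or Gh (0.69, edgeR adjusted p = 0.0550), nor against Sh + Flx (-0.62, edgeR adjusted p = 0.417).

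Fosl2, which encodes the Fos relative Fra-2, was lower in Sh + Flx anxious input than in each of the other groups. It stood at 35.5, 30.3, 29.1 and 39.6 CPM in Sh + Flx anxious input, against 60.6, 53.7, 50.6 and 55.9 CPM in Sh + Flx, 49.1, 62.1, 61.5 and 50.8 CPM in Sh and 65.0, 47.4, 49.7 and 60.7 CPM in Gh input. The 4 anxious libraries lay below all 12 others. Fosl2 fell by 0.70 on the log2 scale against Sh + Flx (standard error 0.11, edgeR adjusted p = 0.00172, and 0.442 with pairs summed). It fell by 0.72 against Sh (edgeR adjusted p = 4.25e-05) and by 0.74 against Gh (edgeR adjusted p = 2.22e-05), and both calls held with pairs summed. Oligodendrocyte markers were lower too, and all 6 fell in Sh + Flx anxious against Sh. Their summed level was 923 to 1223 CPM in Sh + Flx anxious, 1181 to 1266 CPM in Sh + Flx, 1404 to 1725 CPM in Sh and 1526 to 1700 CPM in Gh input. Mean Fosl2 stood at 55.2 CPM in Sh + Flx and 55.9 CPM in Sh input. Within Sh + Flx anxious input the oligodendrocyte markers stood at 1011, 1223, 1127 and 923 CPM. Their part in the result was not tested.

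Fos itself, the founding member of its family, was not called in any of the 12 comparisons within a fraction. In input it stood at 16.3, 3.49, 5.49 and 15.9 CPM in Sh + Flx anxious, 17.1, 11.5, 11.6 and 16.8 CPM in Sh + Flx, 5.06, 15.8, 16.5 and 6.96 CPM in Sh and 8.43, 15.4, 11.6 and 8.06 CPM in Gh. The 4 groups overlapped, and libraries of one group differed by up to 4.66-fold. The log2 fold change for Sh + Flx against Sh was 0.34 (standard error 0.34, edgeR adjusted p = 0.766).

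Jun, the AP-1 subunit that can also pair with itself, was higher in both fluoxetine groups. It stood at 55.6, 48.7, 48.3 and 55.7 CPM in Sh + Flx anxious and 54.5, 46.5, 45.6 and 51.8 CPM in Sh + Flx, against 32.1, 36.8, 39.3 and 31.8 CPM in Sh and 31.2, 39.4, 41.5 and 32 CPM in Gh input. No library of a fluoxetine group overlapped with one of a vehicle group. Summed markers of other cortical neurons parted the same libraries without overlap, those of interneurons at 1471 to 1575 CPM in the fluoxetine groups against 1189 to 1327 CPM in the vehicle groups, and those of upper layers at 854 to 964 CPM against 999.5 to 1121 CPM. Their part in the Jun values was not tested. Jun rose by 0.50 on the log2 scale in Sh + Flx against Sh (standard error 0.10, edgeR adjusted p = 0.00298, and 0.154 with pairs summed), and by 0.44 against Gh (edgeR adjusted p = 0.00526, and 0.151 with pairs summed). Its rise in Sh + Flx anxious was 0.58 against Sh (edgeR adjusted p = 0.000195) and 0.52 against Gh (edgeR adjusted p = 0.00043), with both calls kept when pairs were summed. Without the Sh libraries that held pituitary transcripts, the call of Jun in Sh + Flx against Sh was lost (edgeR adjusted p = 0.143). Sh + Flx anxious and Sh + Flx differed by 0.08 (95% interval -0.12 to 0.28). Junb, a relative of Jun, was the scarcest member, at 2.10 to 5.64 CPM over the 16 input libraries, and no comparison called it.

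Egr1, the zinc finger factor also known as Zif268, lies on chr18:34861207-34864956 and was lower in Sh + Flx anxious input than in Sh and Gh input. It stood at 509.8, 338, 357 and 538 CPM in Sh + Flx anxious and 620.0, 592, 582 and 611 CPM in Sh + Flx, against 560.4, 783, 771 and 563 CPM in Sh and 774, 685, 714 and 779.5 CPM in Gh input. The anxious libraries lay below all others, with replicates 2 and 3 the lowest. The upper layer markers summed to 854 to 901 CPM in Sh + Flx anxious, 885 to 964 CPM in Sh + Flx, 999.5 to 1061 CPM in Sh and 1066 to 1121 CPM in Gh input, and their part in the Egr1 values was not tested. Egr1 fell by 0.61 on the log2 scale in Sh + Flx anxious against Sh (standard error 0.12, edgeR adjusted p = 0.000753, and 0.0696 with pairs summed) and by 0.77 against Gh (edgeR adjusted p = 3.27e-05, and 0.0148 with pairs summed). Against Sh + Flx the log2 fold change was -0.45 (edgeR adjusted p = 0.130), which did not pass. In Sh + Flx against Gh it was -0.32 (edgeR adjusted p = 0.118), although the 4 Sh + Flx libraries lay below all 4 Gh libraries.

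By edgeR, the other Egr genes gave no call in input with all libraries in the fit. Egr2, known as Krox20, stood at 16.6, 3.73, 5.49 and 13.3 CPM in Sh + Flx anxious, 16.05, 10.7, 13.5 and 19.9 CPM in Sh + Flx, 8.92, 25.4, 24.3 and 9.97 CPM in Sh and 14.2, 18.3, 20.0 and 17.0 CPM in Gh. Its anxious libraries 2 and 3 were the lowest of the 16 and its Sh libraries 2 and 3 the highest, and the log2 fold change between these groups was -0.79 (edgeR adjusted p = 0.168). Without Sh libraries 1 and 4, which hold pituitary transcripts, it was -1.32 and passed (edgeR adjusted p = 0.0114), and it also passed without Sh + Flx anxious input replicate 1 (edgeR adjusted p = 0.0360). Egr4 came near the threshold in Sh + Flx anxious against Gh, at 8.86, 5.98, 5.65 and 10.2 CPM against 9.76, 12.2, 9.58 and 11.95 CPM, with a log2 fold change of -0.50 (edgeR adjusted p = 0.0524). DESeq2 called it (adjusted p = 0.0339), as did edgeR with no filter on low counts (adjusted p = 0.0410). Egr3, which acts downstream of neuronal activity alongside Egr1, lay between 336 and 454 CPM in all 16 libraries. Its log2 fold changes within input ran from -0.08 to 0.08, and the 95% interval for Sh + Flx against Sh was -0.08 to 0.23.

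Npas4, the factor of this group most tied to calcium entry in neurons, stood at 27.0, 5.69, 7.95 and 28.6 CPM in Sh + Flx anxious, 26.0, 9.65, 6.96 and 23.4 CPM in Sh + Flx, 8.44, 10.9, 12.6 and 6.54 CPM in Sh and 11.4, 12.5, 10.2 and 12.2 CPM in Gh input. In both fluoxetine groups replicates 1 and 4 lay above every vehicle library, and replicates 2 and 3 lay within or below the range of the vehicle libraries. The log2 fold change was 0.87 in Sh + Flx anxious against Sh (edgeR adjusted p = 0.192) and 0.77 in Sh + Flx against Sh (edgeR adjusted p = 0.389), and neither passed.

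**Figure D2:**
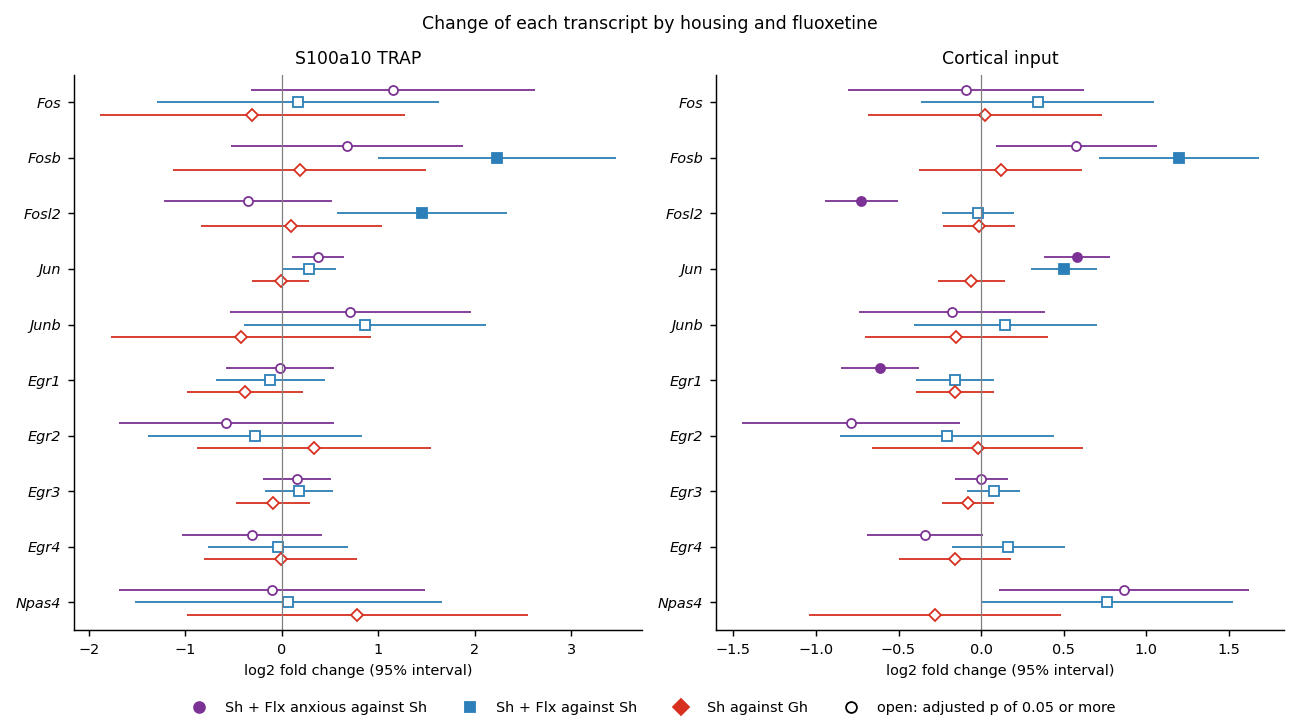
Log2 fold change of each transcript with its 95% interval in TRAP and in input, for Sh + Flx anxious against Sh, Sh + Flx against Sh and Sh against Gh. Filled symbols have an edgeR adjusted p under 0.05, among them Fosb (2.23) and Fosl2 (1.45) in TRAP and Jun (0.50) in input for Sh + Flx against Sh.

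In the TRAP fraction the calls were fewer and rested on fewer libraries. Sh + Flx against Sh called 2 of the 10, Fosb and Fosl2, both higher, beside 6.46% of all genes. For Sh + Flx anxious against Sh it called 0, with 1 at an unadjusted p under 0.05 and 1 by DESeq2, beside 10.5% of all genes by edgeR. Sh + Flx against Gh called 0, with 2 at an unadjusted p under 0.05 and 0 by DESeq2, beside 0.00597%. The test of Sh + Flx anxious against Gh called 0, with 1 at an unadjusted p under 0.05 and 0 by DESeq2, beside 0.0716%. Between Sh + Flx anxious and Sh + Flx it called 0, with 2 at an unadjusted p under 0.05 and 0 by DESeq2, beside 0% of all genes. Sh against Gh also called 0, with 0 at an unadjusted p under 0.05 and 0 by DESeq2, beside 0%. Over all genes, Sh against Gh had 2634 at an unadjusted p under 0.05 and 209 called by DESeq2, and edgeR called 5001 once Sh replicates 1 and 4 were left out, when 0 members were called.

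**Figure D3:**
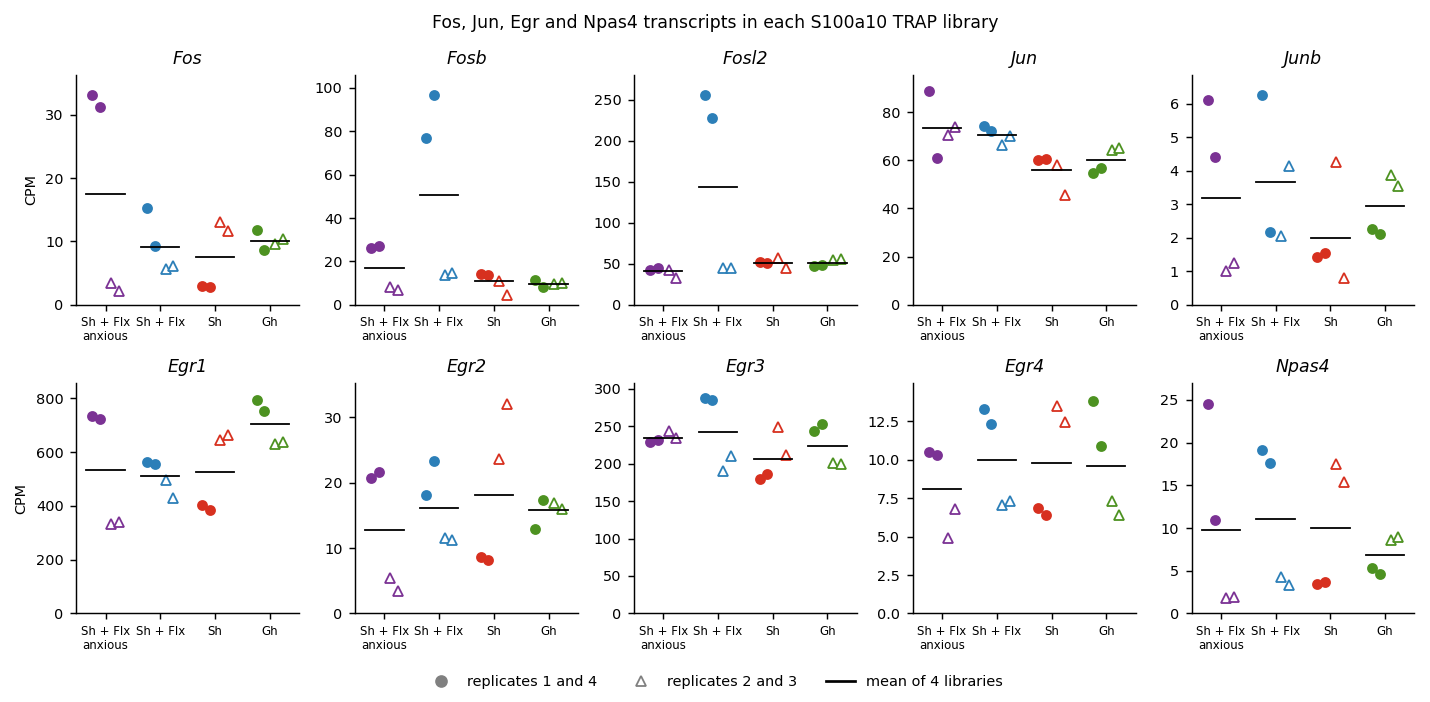
CPM of each of the 10 transcripts in the 16 TRAP libraries, drawn as for input. Replicates 1 and 4 of Sh + Flx reach 76.8 and 96.5 CPM for Fosb and 256 and 228 CPM for Fosl2, and replicates 2 and 3 lie at 13.9 and 14.5 CPM and at 44.5 and 45.4 CPM.

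The high Fosb and Fosl2 of Sh + Flx TRAP was that of replicates 1 and 4. Fosb stood at 76.8, 13.9, 14.5 and 96.5 CPM in Sh + Flx TRAP, against 14.3, 10.9, 4.38 and 13.5 CPM in Sh and 11.5, 9.59, 9.80 and 8.12 CPM in Gh TRAP. Its log2 fold change against Sh was 2.23 (standard error 0.59, edgeR adjusted p = 0.0356). Fosl2 stood at 256, 44.5, 45.4 and 228 CPM in Sh + Flx TRAP, against 52.2, 57.4, 44.4 and 51.1 CPM in Sh and 46.6, 53.9, 55.2 and 48.7 CPM in Gh TRAP, a log2 fold change against Sh of 1.45 (standard error 0.42, edgeR adjusted p = 0.0477). For both genes replicates 2 and 3 of Sh + Flx were close to or within the range of the Sh libraries. With both replicates 1 and 4 left out, an alternative chosen after seeing the data, the log2 fold change against Sh was 0.34 for Fosb (edgeR adjusted p = 0.712) and -0.28 for Fosl2 (edgeR adjusted p = 0.351). With pairs summed the edgeR adjusted p was 0.447 for Fosb and 0.448 for Fosl2, and without Sh TRAP replicates 2 and 3, the libraries low in S100a10, it was 0.144 and 0.121. Among the 16 fits that leave out a single library, Fosb passed in 12. It did not pass without Sh + Flx TRAP replicate 1 (edgeR adjusted p = 0.0858) or 4 (0.0917), or without Sh TRAP replicate 2 (0.0843) or 3 (0.0919). Fosl2 passed in 6 of the 16 and reached its highest p, 0.146 by edgeR, without Sh + Flx TRAP replicate 1. It also did not pass without Sh + Flx TRAP replicate 4, Sh TRAP replicate 2 or 3, Gh TRAP replicate 1 or 4, or any of the 4 Sh + Flx anxious TRAP libraries (edgeR adjusted p 0.0568 to 0.117). With the replicate number as a block its edgeR adjusted p was 0.0893.

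Other values also parted Sh + Flx TRAP replicates 1 and 4 from 2 and 3. S100a10 stood at 50.4 and 41.5 CPM in replicates 1 and 4 and at 70.6 and 72.0 CPM in replicates 2 and 3, and interneuron markers summed to 885 to 945 CPM and 625 to 738 CPM. Meningeal fibroblast markers overlapped between the pairs, at 634 to 749 CPM in replicates 1 and 4 and 731 to 778 CPM in replicates 2 and 3. Astrocyte markers parted them, at 617 to 693 and 547 to 549 CPM, as did oligodendrocyte markers, at 716 to 754 and 517 to 530 CPM. Their part in the Fosb and Fosl2 values was not tested. Fosb in Sh + Flx anxious TRAP stood at 26.0, 7.93, 6.95 and 27.0 CPM, and Fosl2 at 42.4, 42.2, 32.8 and 44.7 CPM, so that the height of Fosl2 seen in 2 Sh + Flx libraries was in none of the anxious libraries. Against Sh + Flx the log2 fold changes were -1.56 for Fosb and -1.81 for Fosl2, and neither passed (edgeR adjusted p = 0.9999 and 0.977). Against Gh, Sh + Flx TRAP gave log2 fold changes of 2.42 for Fosb and 1.55 for Fosl2, which also did not pass (edgeR adjusted p = 0.353 and 0.460).

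The other members gave no call in TRAP. Jun stood at 88.9, 70.4, 73.9 and 61.1 CPM in Sh + Flx anxious and 74.1, 66.2, 70.2 and 72.3 CPM in Sh + Flx, against 60.2, 58.2, 45.5 and 60.4 CPM in Sh and 54.8, 64.1, 65.2 and 56.7 CPM in Gh TRAP. Every fluoxetine library lay above every Sh library, and the log2 fold change was 0.38 for Sh + Flx anxious against Sh (edgeR adjusted p = 0.0693, DESeq2 adjusted p = 0.0432) and 0.29 for Sh + Flx against Sh (edgeR adjusted p = 0.167). Fos stood at 33.1, 3.44, 2.23 and 31.1 CPM in Sh + Flx anxious, 15.2, 5.64, 6.17 and 9.26 CPM in Sh + Flx, 2.94, 13.0, 11.7 and 2.72 CPM in Sh and 11.8, 9.59, 10.4 and 8.70 CPM in Gh TRAP. The anxious libraries held both the highest and the lowest Fos values of the fraction. Egr1 stood at 735, 334, 341 and 723 CPM in Sh + Flx anxious, 565, 497, 428 and 557 CPM in Sh + Flx, 404, 645, 664 and 387 CPM in Sh and 793, 629, 639 and 755 CPM in Gh TRAP. Sh + Flx lay below Gh in every library, but the log2 fold change of -0.50 did not pass (edgeR adjusted p = 0.916). Npas4 stood at 24.5, 1.78, 1.91 and 10.9 CPM in Sh + Flx anxious, 19.2, 4.21, 3.33 and 17.6 CPM in Sh + Flx, 3.46, 17.5, 15.4 and 3.74 CPM in Sh and 5.32, 8.56, 8.94 and 4.62 CPM in Gh TRAP, with the groups overlapping throughout. Egr2 ranged from 3.43 to 32.1 CPM, Egr4 from 4.88 to 13.8 CPM, Egr3 from 179.6 to 287 CPM and Junb from 0.791 to 6.27 CPM over the TRAP libraries.

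Within groups, the members often differed between the library pairs. The pairs were chosen from these same counts, so a lack of overlap between them was favoured beforehand, for other genes as well. Replicates 1 and 4 did not overlap with replicates 2 and 3 in 70 of the 80 combinations of gene and group, 33 of 40 in TRAP and 37 of 40 in input. The median fold between the pair means was 1.73 in TRAP and 1.32 in input, and the median fold within a pair over both fractions was 1.07. The largest, 11.3-fold, was that of Fos in Sh + Flx anxious TRAP, where replicates 1 and 4 had 33.1 and 31.2 CPM and replicates 2 and 3 had 3.44 and 2.23 CPM. Over the 13622 to 14358 genes compared in a group, 40.7% to 75.0% had pairs that did not overlap, depending on the group, and the median fold between pairs was 1.09 to 1.498, against 1.19 to 2.86 for the members.

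The direction of the pair difference depended on the group. Replicates 1 and 4 of Sh + Flx anxious and Sh + Flx were the higher pair for 8 of 9 and 9 of 9 members with pairs apart in TRAP, and for 10 of 10 and 8 of 10 in input. In Sh they were the lower pair for 6 of 8 in TRAP and 10 of 10 in input, and in Gh for 4 of 7 in each fraction. Of all genes, 45.7% in Sh + Flx anxious TRAP, 47.1% in Sh + Flx TRAP and 40.7% to 45.8% in the input groups had pairs apart. That share was 75.0% in Sh TRAP and 60.4% in Gh TRAP, near the 8 and 7 of 10 members there. The directions were not counted over all genes, so they are given for the members alone. In Sh input, Fos stood at 5.06 and 6.96 CPM in replicates 1 and 4 and at 15.8 and 16.5 CPM in replicates 2 and 3, and the pituitary transcripts marked the same replicates 1 and 4. Other values moved with the pairs as well. Astrocyte markers summed to 480 to 483 CPM in Sh + Flx anxious TRAP replicates 1 and 4 and to 729 to 745 CPM in replicates 2 and 3, and to 487 to 501 CPM and 337 to 348 CPM in Sh input. The part of these values in the members' differences was not tested, and neither the labels nor the study's methods give a shared origin for the pairs.

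**Figure D4:**
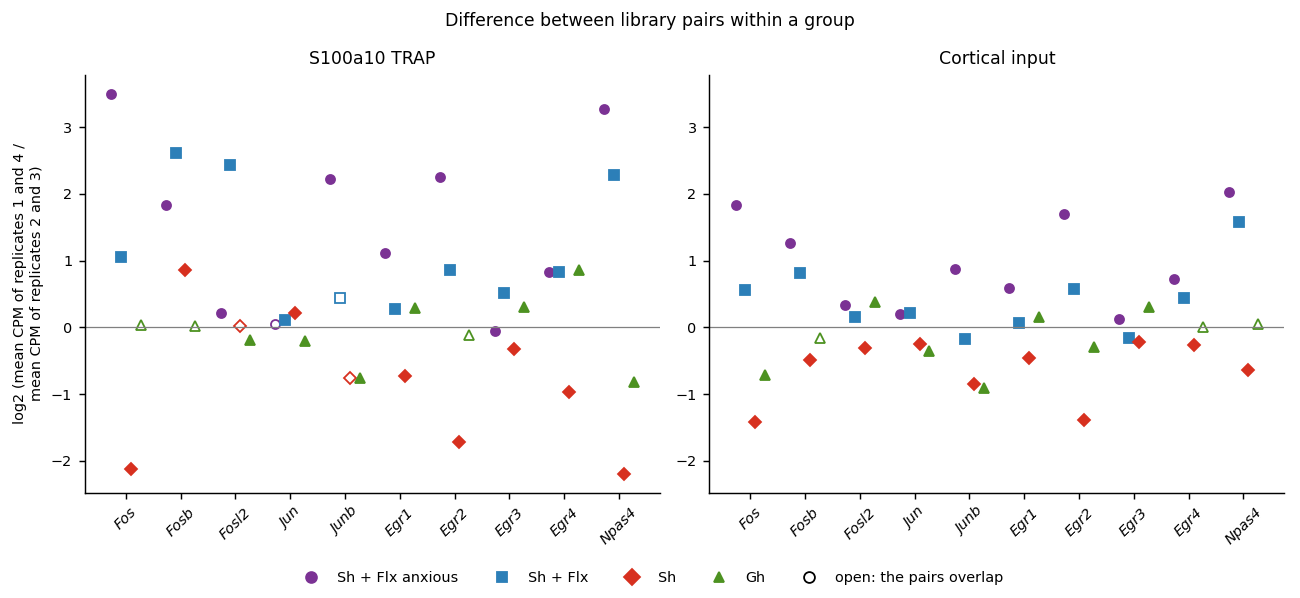
Log2 ratio of the mean CPM of replicates 1 and 4 to that of replicates 2 and 3, for each transcript and group, in TRAP and in input. Filled symbols mark pairs that do not overlap (70 of 80), and the Sh symbols lie mostly below 0 while those of the fluoxetine groups lie mostly above.

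Between TRAP mRNA and input the test called few members in every group. Jun was higher in TRAP and Egr3 lower. The test called, in Sh + Flx anxious, 1 member higher and 1 lower, beside 50.8% of all genes. In Sh + Flx it called 2 higher and 1 lower, beside 51.9%, in Sh 1 higher and 1 lower, beside 40.1%, and in Gh 1 higher and 1 lower, beside 42.2%. The share of members called was thus below that of all genes in each group. Without a call, all TRAP libraries also lay below all input libraries for Fosb and Npas4 in Gh and for Egr1 in Sh + Flx. The gene-wise biological coefficient of variation in the joint fit was 0.623 for Npas4 and 0.456 for Fosb. How many of all genes lacked overlap was not counted. Egr3 stood at 229.6, 243, 234 and 231 CPM in Sh + Flx anxious TRAP, against 393, 373, 349 and 397 CPM in the matching input, and its log2 fold change was -0.87 (standard error 0.13, edgeR adjusted p = 1.66e-06). In Sh + Flx it was -0.92, in Sh -1.02 and in Gh -1.01, with edgeR adjusted p from 1.41e-07 to 1.66e-06 over the 4 groups, and no TRAP library overlapped with an input library of its group. Jun showed log2 fold changes of 0.31 in Sh + Flx anxious, 0.31 in Sh + Flx, 0.53 in Sh and 0.47 in Gh (edgeR adjusted p = 0.0225, 0.0227, 0.000425 and 0.00263 in that order), again without overlap. With pairs summed, Jun kept its call in Sh and Gh and lost it in Sh + Flx anxious and Sh + Flx (edgeR adjusted p = 0.182 and 0.147). Leaving out single libraries, it was lost in Sh + Flx anxious without TRAP replicate 1 (edgeR adjusted p = 0.125) or input replicate 2 (0.0685) or 3 (0.0728), and in Sh + Flx without TRAP replicate 4 (0.0552) or input replicate 2 (0.0649) or 3 (0.0677). Without the Sh libraries 1 and 4, which hold pituitary transcripts, the edgeR adjusted p of Jun in Sh was 0.105. Without Sh TRAP replicates 2 and 3, the test called 6 members in Sh, adding Fos (log2 fold change -2.14), Junb (-1.51), Egr1 (-0.92) and Egr4 (-0.73) as lower in TRAP. With all libraries 40.1% of all genes were called in Sh. The share in the fit without these libraries is not given here, so the 6 members are not compared with it.

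Fosl2 was the other member called, in Sh + Flx, with a log2 fold change of 1.19 (edgeR adjusted p = 0.00267, and 0.0744 with pairs summed). Without Sh + Flx TRAP replicates 1 and 4 its log2 fold change turned to -0.51 (edgeR adjusted p = 0.00774), that of Fosb was -1.44 (edgeR adjusted p = 0.0137), and Jun was not called (edgeR adjusted p = 0.156). Scaling by library size alone moved the median of all genes from -0.0810 to 0.0984 in Sh + Flx anxious, from -0.0689 to 0.132 in Sh + Flx, from 0.0149 to 0.160 in Sh and from -0.0645 to 0.173 in Gh. Jun and Egr3 stayed on their sides of 0 and past the threshold under it in all 4 groups. Markers of meningeal fibroblasts and of mural cells were higher in TRAP, the mural markers at 74.9 to 206 CPM against 18.7 to 27.7 CPM in input, and interneuron markers lower, at 625 to 1190 CPM against 1189 to 1575 CPM. Their part in the differences of Jun and Egr3 was not tested.

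**Figure D5:**
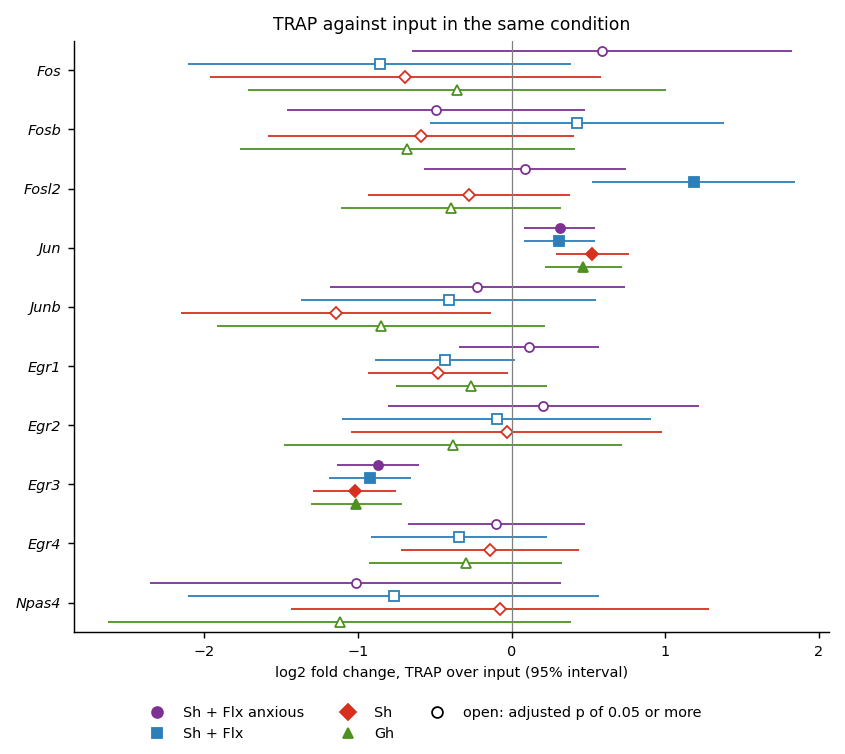
Log2 fold change of TRAP over input for each transcript with its 95% interval, in the 4 groups. Filled symbols have an edgeR adjusted p under 0.05, and Egr3 lies at -1.02 to -0.87 and Jun at 0.31 to 0.53 in every group.

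Whether a change between groups was larger in TRAP than in input was tested as an interaction, and none of the 10 passed. The count was 0 for Sh + Flx anxious against Sh, beside 7.31% of all genes, with 0 at an unadjusted p under 0.05. It was 0 for Sh + Flx against Sh, beside 2.97%, with 1 at an unadjusted p under 0.05, and 0 for Sh + Flx anxious against Gh, beside 0.0294%, with 0 at an unadjusted p under 0.05. It was 0 for Sh + Flx against Gh, beside 0.0529%, with 1 at an unadjusted p under 0.05, and 0 for Sh against Gh, beside 0.0235%, with 0 at an unadjusted p under 0.05. DESeq2 also called 0 members in each. The nearest was Fosl2 in Sh + Flx against Sh, whose change in TRAP exceeded that in input by 1.46 on the log2 scale (standard error 0.46, edgeR adjusted p = 0.0642). It passed without Sh + Flx TRAP replicate 2 (edgeR adjusted p = 0.0206) or 3 (0.0297), the libraries where Fosl2 was low, and without Sh TRAP replicate 1 (0.0427) or 4 (0.0443). For Fosb the difference was 1.01 (95% interval -0.37 to 2.39), so the larger fold in TRAP than in input was not shown to differ.

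Other genes of the pathway were taken from lists of late and rapid response genes, upstream factors, partners and other AP-1 subunits, drawn up with earlier results of these data known. Of 16 late response genes, those that follow the early factors, 8 rose in input and 7 in TRAP in Sh + Flx against Sh. Of all genes, 1.82% in input and 2.65% in TRAP were called higher. In either fraction 0 of the 16 fell, where 0.797% and 3.81% of all genes were called lower. The median log2 fold change of the list was 0.35 in input and 0.58 in TRAP, beside -0.0035 and -0.017 over all genes. Nptx2, which clusters AMPA receptors at synapses, stood at 35.6, 35.7, 39.1 and 32 CPM in Sh + Flx input, against 9.88, 9.35, 11.4 and 12.6 CPM in Sh input, a log2 fold change of 1.73 (edgeR adjusted p = 3.99e-09). Bdnf, a neurotrophin, rose by 0.77 (edgeR adjusted p = 2.49e-05) and Inhba, the activin A subunit, by 0.86 (edgeR adjusted p = 1.84e-05) in input. In TRAP, Nptx2 rose by 1.67 (edgeR adjusted p = 0.00425), Cdkn1a, a cell cycle inhibitor, by 1.38 (edgeR adjusted p = 0.00425) and Rgs2, a brake on G protein signaling, by 1.20 (edgeR adjusted p = 0.00876). Nptx2 was alike in replicates 1 and 4 and in replicates 2 and 3 of Sh + Flx input, whereas Rgs2 split as Fosb did, at 275, 187, 189 and 284 CPM in Sh + Flx input and 296, 168, 174 and 320.1 CPM in Sh + Flx TRAP. With pairs summed 5 of the 16 were called in input and 0 in TRAP, and without Sh + Flx TRAP replicates 1 and 4 the count in TRAP was 1.

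Of 26 other rapid response genes, 2 rose in input and 3 in TRAP in Sh + Flx against Sh, beside the same 1.82% and 2.65% of all genes called higher. The median log2 fold change was -0.051 in input and 0.49 in TRAP. Ier5, a stress-induced nuclear factor, rose by 0.54 (edgeR adjusted p = 0.000768) and Klf10, a zinc finger factor, by 0.76 (edgeR adjusted p = 0.00195) in input. In TRAP the 3 were Maff, a small Maf factor, with a log2 fold change of 2.69 (edgeR adjusted p = 0.0108), the orphan nuclear receptor Nr4a3 with 2.36 (edgeR adjusted p = 0.0109), and the pseudokinase Trib1 with 0.60 (edgeR adjusted p = 0.0418). Maff stood at 37.5, 10.3, 8.63 and 28.8 CPM in Sh + Flx TRAP, against 4.37, 3.49, 1.70 and 3.52 CPM in Sh TRAP, and Nr4a3 at 68.8, 17.5, 26.0 and 83.2 CPM, against 8.53, 12.4, 7.35 and 9.18 CPM. Both were highest in Sh + Flx replicates 1 and 4, as Fosb and Fosl2 were. Unlike Fosl2, both also lay above every Sh TRAP library in replicates 2 and 3. Without replicates 1 and 4, 0 of the 26 were called, while calls over all genes went from 1083 to 34. In Sh + Flx anxious against Sh, 2 of the 26 rose in input and 4 fell, beside 6.86% of all genes called. Those that fell were Nr4a2 by 0.44, Nr4a3 by 0.98, Nr4a1 by 0.93 and Per1, a clock gene, by 0.44 on the log2 scale (edgeR adjusted p = 2.75e-05, 0.000305, 0.0147 and 0.0481 in that order). These were named after their values were seen, and the 2 that rose are not listed here. In Sh + Flx anxious TRAP against Sh TRAP 1 of the 26 rose and 1 fell, where 10.5% of all genes were called.

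Among the 15 upstream factors, 2 rose in Sh + Flx against Sh in input, Mkl2, a coactivator of SRF, by 0.22 (edgeR adjusted p = 0.00651) and Elk1, an ETS factor that binds with SRF, by 0.30 (edgeR adjusted p = 0.0324), and 0 were called in TRAP. Of the 12 partners and regulators, Arnt2 among them, 0 were called in either fraction. Of 9 other AP-1 subunits, 5 passed the filter on low counts in input and 7 in TRAP, and 0 were called. Atf3, a stress-induced subunit, had the smallest p of these in TRAP, at 11.1, 1.62, 1.40 and 9.81 CPM in Sh + Flx against 1.73, 0.596, 0.632 and 1.87 CPM in Sh, a log2 fold change of 2.28 (edgeR adjusted p = 0.0956).

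As a description of shared patterns, the gene with the pattern most like the mean of the 10 members over the 16 input libraries was Dusp6, a phosphatase of ERK (Pearson r of log2 CPM = 0.94 of 13634 genes compared). Dusp14 (0.83), Rap1gds1 (0.80), Tiparp (0.79) and Atp5b (0.79) followed. Over the 15 TRAP samples it was Nr4a1 (0.90 of 14245 genes), followed by Dnajc27, Wars, Hrk and Apold1 (0.81 to 0.85), a list taken after the values were seen. Among the members, 40 of the 45 gene pairs correlated above 0 in input and 42 of 45 in TRAP, with medians of 0.44 and 0.45. Fosl2 and Egr1 were the closest pair in input (r = 0.91), and Npas4 and Egr2 in TRAP (r = 0.87). Jun had r = 0.75 to Fosb, 0.54 to Npas4 and 0.37 to Fos in input, and r = -0.50 to both Egr1 and Fosl2. These points are not independent, since libraries share their group and the pattern of replicates 1 and 4 against 2 and 3.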

How the data were processed

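Per the labels and the study's methods, tagged polysomes and whole cortex RNA were amplified with the NuGEN Ovation V2 system, which does not keep strand, and sequenced in pairs on an Illumina sequencer. The authors aligned reads to mm10 with TopHat2 2.0.11 (the submitters' processing notes also name Cufflinks 2.2.1, edgeR 3.8.6 and DESeq2) and deposited raw counts per gene, 1 table a library with 24062 genes. How reads were counted per gene was not given in the sources read here. Lines that name no gene (5 a table) stayed out: reads outside features were 25.2% to 58.6% of counted reads in TRAP and 45.1% to 55.2% in input, and ambiguous reads 0.331% to 0.724% and 0.411% to 0.520%. The workbook tables hold the authors' mean expression and their own comparisons and were not used.

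Counts were tested here with edgeR 4.0.16 (R 4.3.3, limma 3.58.1): TMM scaling, filterByExpr by group, and glmQLFTest with Benjamini-Hochberg adjustment over all genes kept, at 0.05. The 4 TRAP groups made 1 fit (15 samples, 16754 genes), the 4 input groups another (16 samples, 15690 genes), and all 8 groups a joint fit for TRAP against input and for the interaction (31 samples, 17015 genes). The joint fit took TRAP and input libraries as independent samples. All 10 members passed the filter in every fit. Gh TRAP replicates 2 and 3 were summed as 1 sample, since their counts differed by a mean chi-square of 1.13 per gene, against 2.17 to 407 in other comparisons of replicates. The value of 2.17 was that of Sh TRAP replicates 1 and 4, which were not summed in the main fits. CPM given per library uses library size alone, and RPKM divides it by RefSeq exon length. Intervals are 95%. The procedure was tested on simulated data before use.

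Named genes are the 10 members, S100a10, up to 3 genes of each pathway list with the smallest p in Sh + Flx against Sh per fraction, and the 5 genes most like the members over the input libraries (Pearson r of log2 CPM with a pseudocount of 1, mean CPM of at least 1). Others are said to be chosen after their values were seen. The members and lists were chosen with earlier results of these data known. Alternatives were DESeq2 1.42.0, RLE factors, library size alone, no filter, a replicate block, replicates 1 and 4 and replicates 2 and 3 summed, Gh TRAP 2 and 3 kept separate, Sh TRAP 2 and 3 left out and each library left out. Leaving out Sh + Flx TRAP 1 and 4, or Sh 1 and 4, was added after seeing the data.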

Additional observations from a re-analysis of the deposited data

Results flagged for a closer look

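Among 116 groups of 4 libraries searched for a single value far from the rest, 1 was found, where chance gives about 1 in 20 groups. Jun stood at 45.5 CPM in Sh TRAP replicate 3, against 58.2 to 60.4 CPM in the other Sh TRAP libraries, with a gap of 0.852 of the whole range, past the critical value for 4 samples.

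The change between groups differed between TRAP and input for 2 flagged genes of the pathway lists. How many list genes were searched is not given here. The change of Nr4a3, an orphan nuclear receptor of the rapid response list, was larger in TRAP by 2.79 on the log2 scale in Sh + Flx against Sh (edgeR adjusted p = 0.00466), beside 2.97% of all genes called. It was larger by 2.71 in Sh + Flx against Gh (edgeR adjusted p = 0.0422), beside 0.0529% of all genes. In Sh + Flx anxious against Sh, the difference for Elk1, an ETS factor upstream of the members, was -0.65 (edgeR adjusted p = 0.0303), beside 7.31% of all genes called. With replicates 1 and 4 summed and 2 and 3 summed, 0 genes passed these interaction tests.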

How the results depend on the processing

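Over all comparisons 22 calls of members were made, 22 with RLE factors or library size alone, 24 with DESeq2, 26 without a filter on low counts and 11 with replicates 1 and 4 and replicates 2 and 3 summed. Of 6716 recomputed values of members, 39 lost a call, 38 gained one, 3 turned in a called value and 6636 did none of these, and 319 values, called or not, had another sign. The 3 that turned were, without Sh + Flx TRAP replicates 1 and 4, Fosl2 at -0.28 in Sh + Flx against Sh in TRAP, and Fosb at -1.44 and Fosl2 at -0.51 in TRAP against input in Sh + Flx. The cause was not tested.

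In TRAP, Sh + Flx against Sh called 2 members, 0 with pairs summed, 0 without Sh TRAP 2 and 3, 0 without Sh + Flx TRAP 1 and 4, and 0 to 2 with single libraries left out. For Sh + Flx anxious against Sh it was 0, 1 by DESeq2 and 1 without Sh 1 and 4. In input, Sh + Flx against Sh called 2, 0 with pairs summed and 0 without Sh 1 and 4. Sh + Flx against Gh called 2 and 0 with pairs summed. Sh + Flx anxious against Gh called 3, 6 without a filter and 3 to 5 with single libraries left out. Against Sh it called 3, 4 without Sh 1 and 4 (Egr2 added), and 3 to 5 with single libraries left out, Fosb and Npas4 passing without Sh + Flx anxious input replicate 2 and Egr2 without replicate 1. Against Sh + Flx it called 1, 2 without a filter and 0 with pairs summed. TRAP against input called 2 in Sh, 6 without Sh TRAP 2 and 3, 1 without Sh 1 and 4, and 2 to 3 with single libraries left out. In Sh + Flx it called 3, 1 with pairs summed, 5 without Sh + Flx TRAP 1 and 4, and 2 to 3 with single libraries left out. For Sh + Flx anxious it called 2, 1 with pairs summed and 1 to 2 with single libraries left out. The interaction called 0 in Sh + Flx against Sh, 1 without Sh 1 and 4, and 0 to 1 with single libraries left out, and 0 in Sh + Flx anxious against Sh, 1 without Sh TRAP 2 and 3.

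Nothing in the labels pairs the replicate numbers, but pituitary transcripts marked the same Sh replicate numbers in TRAP and in input. The input library most like a TRAP library had its number, or that of its pair partner, in 10 of 16. The replicate block used a number shared by all groups. Pairing of TRAP with input within a mouse group was thus not modelled in the tests of TRAP against input or in the interactions. Deviations of the same number correlated at -0.0264 to 0.1669 between TRAP and input (over 0.1 in 5 of 16), -0.3297 to 0.2630 between groups in TRAP (5 of 24) and -0.2048 to 0.1709 in input (5 of 24). Every pair was over 0.1 for Sh with Gh in TRAP alone (0.1361 to 0.2630), where 0 members were called with and without the replicate block. With the replicate block 22 calls were made in all, losing Fosl2 in Sh + Flx against Sh in TRAP (1 of 2 left) and gaining Egr4 in Sh + Flx anxious against Gh in input (adjusted p = 0.0487 by edgeR).

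Over all genes, TRAP calls in Sh + Flx against Sh were 1083, 2400 by DESeq2, 0 with pairs summed and 179 to 2418 with single libraries left out, and in Sh + Flx anxious against Sh 1757, 2787, 0 and 611 to 2703. Input calls were 411, 601, 59 and 252 to 457 in Sh + Flx against Sh, and 1076, 1320, 381 and 795 to 1148 in Sh + Flx anxious against Sh. In TRAP, Sh + Flx against Gh had 1 call (84 by DESeq2, 14 with the block, 0 with pairs summed), Sh + Flx anxious against Gh 12 (130, 37 and 0), Sh against Gh 0 (209 by DESeq2) and Sh + Flx anxious against Sh + Flx 0 (9 by DESeq2). In input, calls by edgeR, by DESeq2 and with pairs summed were 833, 1154 and 148 in Sh + Flx against Gh, 1802, 2127 and 685 in Sh + Flx anxious against Gh, 20, 95 and 1 in Sh + Flx anxious against Sh + Flx, and 13, 150 and 0 in Sh against Gh. The interactions had 506 in Sh + Flx against Sh (1069 by DESeq2), 1243 in Sh + Flx anxious against Sh, 9 in Sh + Flx against Gh (28), 5 in Sh + Flx anxious against Gh (55) and 4 in Sh against Gh (61), and 0 each with pairs summed. Without Sh 1 and 4, TRAP calls were 5001 in Sh against Gh, 6313 in Sh + Flx against Sh and 6435 in Sh + Flx anxious against Sh, input calls 3, 201 and 644, and interaction calls 3717, 5103 and 5422 in the same order. Without Sh TRAP 2 and 3 the TRAP calls were 6, 353 and 770, and without Sh + Flx TRAP 1 and 4 those of Sh + Flx against Sh were 34. The smallest count behind a member's value was 20, for Junb.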
